A study of Mus musculus with 3 samples.

Results

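The genes described here are interferon-stimulated genes of the mouse, measured in sarcoma cells that carry an inducible EWS/ATF1 transgene. They are a list of 42 symbols, and a gene counted as measured where the platform annotation gives it a probe set with a single symbol. This held for 37 of the 42, out of 19938 genes measured in the same way. Ifi204, Isg15, Gbp2 and Igtp were covered by probe sets that carry several symbols, and no probe set was listed for Ifi44, so these 5 members are not analysed here. EWS/ATF1 fuses a portion of EWSR1, which binds RNA, to the transcription factor ATF1 and is the fusion oncogene of human clear cell sarcoma. Per the labels, all 3 samples come from soft tissue sarcomas of mice on a mixed C57/BL6, 129 and ICR background, with the transgene switched on by doxycycline. The array labelled control carries RNA of cultured tumor cells without doxycycline (0 microg/ml). The array labelled high doxycycline was made from cultured cells 24 h after doxycycline was added at 0.2 microg/ml. The array labelled tumor was made from RNA of a resected tumor, from a mouse that had received doxycycline for 3 months. The labels give both cultures one code and the tumor another, without saying what the codes stand for, and the sources used here do not name the promoter that drives the transgene.

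Interferons are secreted by cells that sense viral nucleic acid. Type I interferons bind a receptor whose kinases switch on the transcription factor complex ISGF3, which includes STAT2 and IRF9. ISGF3 binds the interferon-stimulated response element, or ISRE, in the promoters of genes that block viral entry, translation and replication. Interferon gamma acts largely through another element, called GAS, and switches on guanylate-binding and immunity-related GTPases. Many of these genes have a low basal level and are induced together.

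Each group has 1 array, so no difference could be tested, no replicate check exists and no p-value is given. The values are intensities as the authors deposited them. A probe set is called above the array median when it exceeds the median of all 28856 probe sets on that array, which on the log2 scale was 7.97 on control against 7.83 on high doxycycline and 7.79 on tumor. These medians differ by -0.14 (high doxycycline minus control), -0.19 (tumor minus control) and -0.04 (tumor minus high doxycycline). Differences are taken between log2(intensity + 1) values, and folds are on that scale. The only internal measure of error is how far probe sets of the same gene disagree about a difference. The median disagreement was 0.37 on the log2 scale for high doxycycline minus control, 0.38 for tumor minus control and 0.055 for tumor minus high doxycycline. In the first pair 19.9% of 664 genes with several probe sets disagreed by at least 2-fold, in the second 21.0% of 671, and in the third 0.770% of 649.

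Markers of several other cell types went against the labels and are set out first because they touch the results. Among 16 genes of macrophages and other myeloid cells, those above the array median numbered 15 on control against 2 on high doxycycline and 1 on tumor, and their summed intensity was 29594, 2922 and 1821 in that order. Endothelial genes lay above the median in 9 of 10 cases on control and in 2 of 10 on each other array. All 10 skeletal muscle genes lay above it on control, against 4 on high doxycycline and 3 on tumor. Lymphocyte genes lay mostly below the median on every array, with 2, 1 and 0 of 12 above it in the same order. Of 9 neutrophil genes, 3 lay above it on control and 0 on either other array. The 2 red blood cell genes measured lay above it on control, and 0 did on either other array. All 12 fibroblast and matrix genes lay above it on control, and 8 still did on each other array. All 12 were nevertheless at least 2-fold dimmer than control on both (against 5.56% and 6.82% of all genes). Of 6 genes listed for plasmacytoid dendritic cells, which make much type I interferon, 1 lay above it on each array, namely Tcf4, a factor that other cells also express. Of 9 genes known from clear cell sarcoma and pigment cells, 4 lay above the median on each array, though not the same 4: Mitf, S100b and Scg2 did on all, Sox10 on control only and Pmel on the other arrays. Scg2, which encodes a secretory granule protein, had 436 on control against 4544 on high doxycycline and 6559 on tumor, and was at least 10.4-fold above control on both. The rest of this list did not follow. Only 1 of the 9 was at least 2-fold brighter in either comparison with control (11.1%, against 10.6% and 11.3% of all genes), and 0 were dimmer. Against control 3 were higher, 3 lower and 3 equal on high doxycycline, and 3, 4 and 2 on tumor. Mitf, for example, had 1281, 1344 and 1018. These genes were singled out after their values were seen. Hence each array is named by its label, and no value is read as that of untreated cells, treated cells or tumor tissue. In bulk RNA, fewer cells of a type and less RNA per cell cannot be told apart.

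Promoters of the members were searched for the ISRE and GAS elements, since these letters are what the family shares. The sequences are RefSeq promoters on GRCm38.p6, each with 250 bases before and 50 after a start site, and 30 of the 42 members have at least 1. An ISRE was searched on both strands as GAAA, then any 2 letters, then GAAA. It stood in 16 of 34 member promoters (47.1%), against 3.44% of all 32851 promoters of that length. Of these 16 promoters, 8 held more than 1 match, counting matches that overlap each other. The GAS letters TTCNNNGAA, which read the same on both strands, stood in 8 of 34 (23.5%) against 8.30%. The stretches shown here belong to the measured members with an ISRE before the start site whose values differ most between arrays, plus Ifit1. Ifit1 was added after its values were seen, because it lies near Ifit3 on the same chromosome and stayed within 2-fold between all arrays. Each is written 5′ to 3′ on the strand of the gene, and capitals mark the ISRE letters.

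Ifi205 (chr1:174031865-174031904, minus strand): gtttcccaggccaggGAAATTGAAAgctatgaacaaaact
Ifit3 (chr19:34583358-34583431, plus strand): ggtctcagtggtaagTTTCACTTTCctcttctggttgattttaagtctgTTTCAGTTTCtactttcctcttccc
Ifit1 (chr19:34640770-34640828, plus strand): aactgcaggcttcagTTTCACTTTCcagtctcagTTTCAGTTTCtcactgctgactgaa
Stat2 (chr10:128270261-128270300, plus strand): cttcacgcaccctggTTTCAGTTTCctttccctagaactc
Gbp3 (chr3:142559984-142560029, plus strand): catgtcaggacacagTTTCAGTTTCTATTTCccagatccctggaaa
Irgm1 (chr11:48871421-48871465, minus strand): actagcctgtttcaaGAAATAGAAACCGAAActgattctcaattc
Rsad2 (chr12:26456548-26456587, minus strand): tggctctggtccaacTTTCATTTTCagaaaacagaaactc

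The Ifit3 and Ifit1 promoters carry the same pair of ISRE decamers, TTTCACTTTC and then TTTCAGTTTC, starting 156 and 122 bases before the start site in Ifit3 and 104 and 85 bases before it in Ifit1. Stat2 carries the second of these decamers 222 bases before its start site, and Gbp3 carries it 45 bases before, overlapping a further match. Of the 26 measured members with a promoter in the table, 7 differed by at least 2-fold between some pair of arrays, and 5 of these 7 held an ISRE. Among the other 19 it was 8. A match of letters is a description and does not show that a factor binds there.

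Members lay beyond 2-fold in both directions, at shares near those over all genes in most comparisons. With control as the base, 4 of the 37 measured members (10.8%) reached 2-fold on the bright side on high doxycycline, where the background over all 19938 genes was 10.6%. These were Usp18, Eif2ak2, Ddx58 and Herc6. Dimmer by that margin were 2 members (5.41%), Ifi205 and Oas2, against a background of 5.56%. On the array labelled tumor 6 members were at least 2-fold brighter than on control (16.2%, background 11.3%), namely Usp18, Ifit3, Herc6, Eif2ak2, Stat2 and Ifi27. Another 3 were dimmer, Ifi205, Oas2 and Irf7 (8.11%, background 6.82%). From high doxycycline to tumor, Ifit3 alone differed by 2-fold, being brighter on tumor (background 0.913%), and 0 of 37 were dimmer (background 1.15%). The first pair of comparisons use one control array, so they are not independent. The third comparison leaves it out. Between any pair of arrays 10 of 37 members (27.0%) were at least 2-fold apart, against 20.4% of all genes.

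**Figure D1:**
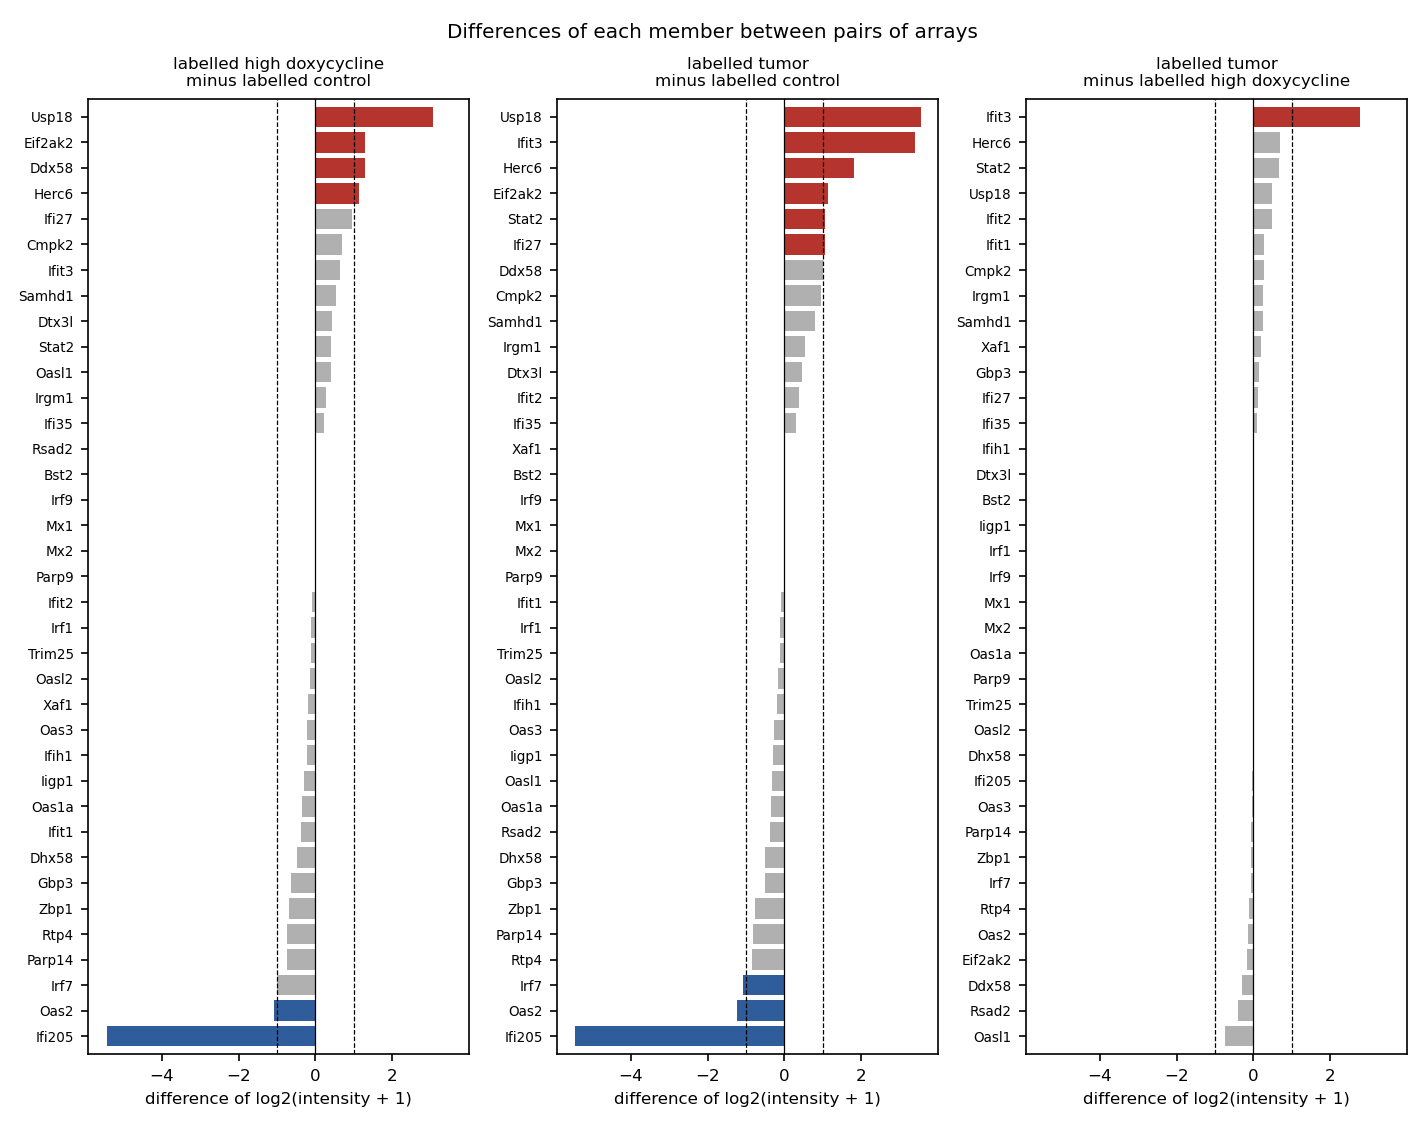
Difference of log2(intensity + 1) for each of the 37 measured members, one panel per pair of arrays, 1 array per group. Bars are sorted by size, dashed lines mark 2-fold, and red and blue bars lie beyond it; the first panel has 4 red and 2 blue bars, the second 6 and 3, and the third 1 and 0.

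Most members differed little. The median difference over the 37 members was 0 in all 3 comparisons, and over all measured genes it was 0, -0.0039 and 0. In the comparison of high doxycycline with control 14 members were higher and 18 lower, and in that of tumor with control the counts were the same. Over all genes 7052 were higher and 8881 lower in the first, and 6843 and 10023 in the second. From high doxycycline to tumor, as deposited, the split leaned to the bright side for the members and to the dim side for all genes. There 15 members were higher and 13 lower, against 4435 and 8712 of 19938 genes. Exactly equal values on all 3 arrays were held by 5 members, Irf9, Mx1, Mx2, Bst2 and Parp9 (13.5%, against 13.8% of all measured genes). Irf1, Oas1a, Trim25 and Iigp1 were equal on the arrays labelled high doxycycline and tumor only. The sources used here do not say why deposited values are equal, so an equal value is not read as a measured lack of change. Shifting the arrays to a common median or quantile-normalizing them turned or set the direction of 8 members for high doxycycline minus control, of 10 for tumor minus control and of 13 for tumor minus high doxycycline. The same was not counted over all genes. Exactly equal as deposited in these pairs were 20.1%, 15.4% and 34.1% of all genes, and 13.5%, 13.5% and 24.3% of members. The directions of the members said here to be at least 2-fold apart did not turn under either scaling. The opposite leanings from high doxycycline to tumor held under neither scaling. Under a common median 27 members were higher and 10 lower, against 13095 and 6843 of all genes. Under quantile normalization it was 28 and 9, against 12959 and 6964.

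**Figure D2:**
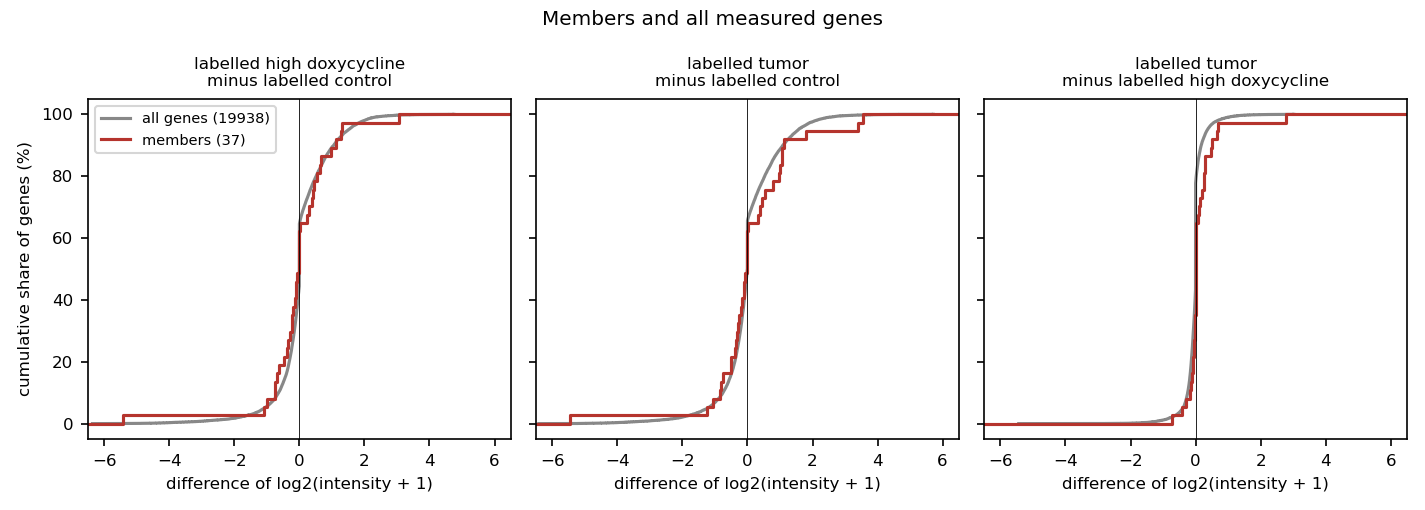
Cumulative share of genes (%) against the difference of log2(intensity + 1), for the 37 measured members (red) and all 19938 measured genes (grey), 1 panel per pair of arrays. Both curves cross 0 near their middle, and the members reach furthest to the left at -5.43 and -5.46 (Ifi205) and to the right at 3.05 and 3.55 (Usp18) in the panels with control.

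With the filter used for brightness, which asks that the brighter array of a pair lie above its median, 23 members entered the first comparison, 24 the second and 21 the third. The counts of members past 2-fold were the same as without it, and the background became 17.5% brighter and 8.46% dimmer, 18.6% and 10.2%, and 1.60% and 1.94% in the same order. The split between directions moved with the scaling, for the members and for all genes, here without the filter. For high doxycycline against control it was 5 brighter and 1 dimmer under a common median, where 12.8% and 4.61% of all genes were brighter and dimmer. Under quantile normalization it was 4 and 3, against 9.03% and 6.35%. For tumor against control it was 8 and 2 under a common median (14.1% and 5.26% of all genes), and 5 and 3 under quantile normalization (1997 and 1449 of the 19938 genes). As deposited, 20, 20 and 21 of the 37 members lay above the array median (54.1%, 54.1% and 56.8% for control, high doxycycline, tumor). These shares were near the background of 55.2%, 55.1% and 55.1% of all genes in that order. Over all members, 17 lay above the array median on every array, 7 on only 1 or 2 of them and 13 on none. The 13 that never did were Ifih1, Dhx58, Ifit1, Ifit2, Oas1a, Oas3, Mx1, Mx2, Rsad2, Gbp3, Iigp1, Parp14 and Rtp4. No detection call comes with the values, so whether such dim probe sets exceed background is not known.

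**Figure D3:**
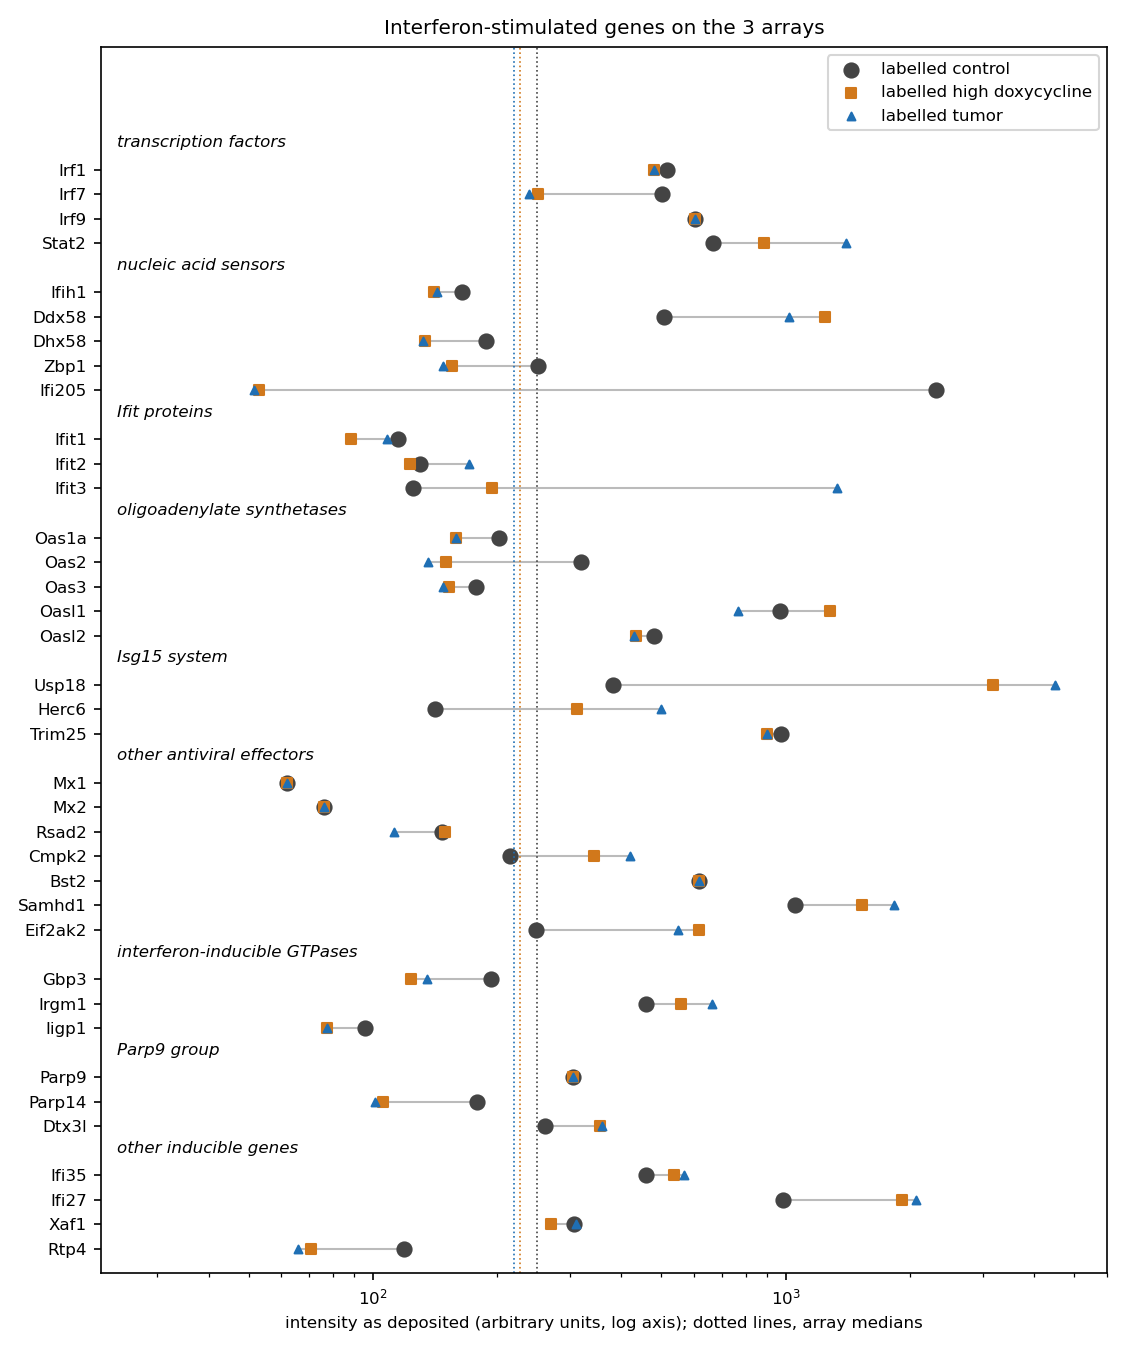
Intensity of each measured member (log axis, arbitrary units as deposited) on the arrays labelled control (circles), high doxycycline (squares) and tumor (triangles), grouped by role, 1 array per group. Grey lines span the 3 values of a gene and dotted lines mark the array medians; Ifi205 spans from 51.6 to 2318 and Usp18 from 382 to 4480, while the Mx1 and Mx2 symbols coincide.

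Among the transcription factors of the response, the ISGF3 subunits did not share a pattern. Stat2, which carries the transactivation domain of ISGF3, had intensities of 665 on the array labelled control, 885 on high doxycycline and 1396 on tumor. The tumor array was thus 2.10-fold above control and 1.58-fold above high doxycycline, and the log2 difference of 1.07 from control became 0.85 under quantile normalization. Irf9, the DNA-binding subunit, was listed at 604 on all 3 arrays. Irf7, which amplifies interferon production in cells already exposed to it, had 501 on control against 251 on high doxycycline and 239 on tumor. Its log2 difference from control was -0.99 on high doxycycline, just under 2-fold, and -1.07 on tumor, which became -0.88 under a common median. Irf1, the factor best known from the interferon gamma response, had 517 on control and 480 on both other arrays, and a second probe set of 301 and 274 gave nearly the same difference (-0.14 against -0.11).

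The sensors of foreign nucleic acid split by gene. Ddx58 encodes RIG-I, which detects viral RNA in the cytosol, and had 508 on the array labelled control, 1244 on high doxycycline and 1017 on tumor. It was 2.45-fold brighter on high doxycycline than on control. On tumor its log2 difference of 0.999 fell just short of the threshold, which it passed under a common median (1.18). Its relatives did not follow. Ifih1, which encodes the RNA sensor MDA5, had 164, 141 and 143 in the same order, and Dhx58, which encodes the regulator LGP2, had 188, 134 and 132. All values of both lay below the array medians. Zbp1, a sensor of left-handed nucleic acid that can trigger cell death, had 252 on control against 156 on high doxycycline and 148 on tumor, so that it was 1.62-fold and 1.70-fold dimmer than on control.

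Ifi205, of the Ifi200 family whose members bind DNA, showed the largest difference of any member. It had 2318 on the array labelled control, 52.8 on high doxycycline and 51.6 on tumor, a log2 difference of -5.43 and -5.46 from control. As deposited it was 43.1-fold and 44.1-fold dimmer on the other arrays. Both dim values lie far below the array medians and have no detection call, so the size of the fold is uncertain and their order is not read. Macrophage and other tissue markers move with it, as given above for the whole lists, and their part in this result was not tested. Its ISRE, GAAATTGAAA, starts 134 bases before the start site in the stretch shown.

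The Ifit genes encode proteins that bind viral RNA or block translation, lie close together in the genome and are usually induced together. Here they diverged. Ifit3 had 125 on the array labelled control, 194 on high doxycycline and 1328 on tumor. It lay above the array median on tumor only, 10.5-fold above control and 6.81-fold above high doxycycline. Ifit1 had 115, 88.6 and 108 in the same order, and Ifit2 had 130, 123 and 171. Neither lay above the median on any array, and the tumor value of Ifit2 was 1.31-fold that of control. Between the tumor and high doxycycline arrays all 3 were brighter on tumor, as deposited and under both scalings. As deposited the log2 difference was 0.28 for Ifit1, 0.47 for Ifit2 and 2.77 for Ifit3. That of Ifit3 was the largest of any member in this pair, and neither Ifit1 nor Ifit2 reached 2-fold. The Ifit1 promoter carries the same ISRE decamers as that of Ifit3. Ifit3b, a closely similar neighbouring copy of Ifit3 that is not a member, followed its order with intensities of 37.7, 65.6 and 274. Hybridisation shared between Ifit3 and Ifit3b cannot be told apart here. The spread between samples was not measured for any of these genes.

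The oligoadenylate synthetases make a second messenger that activates RNase L, which degrades RNA. Oas2 had 320 on the array labelled control, 150 on high doxycycline and 136 on tumor, and was 2.12-fold and 2.34-fold dimmer than on control. Under a common median its log2 difference of -1.09 on high doxycycline became -0.94. Oas3 had 178, 153 and 148 in the same order. Oas1a had 202 on control and 159 on both others. The 3 synthetase genes were thus brightest on control as deposited, by margins from 1.16-fold to 2.34-fold, and only Oas2 on control lay above an array median. Oasl1 and Oasl2 encode relatives with ubiquitin-like domains. Oasl1 had 970 on control against 1278 on high doxycycline and 768 on tumor, so that its brightest and dimmest arrays were the pair that otherwise resembled each other most, 1.66-fold apart. Oasl2 had 480, 433 and 430.

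The conjugation system of the ubiquitin-like protein ISG15 included the largest difference above control of any member. Usp18, the protease that removes ISG15 from its targets and also dampens signalling at the type I interferon receptor, had 382 on the array labelled control, 3180 on high doxycycline and 4480 on tumor. It was 8.31-fold brighter on high doxycycline and 11.7-fold brighter on tumor than on control, with log2 differences of 3.05 and 3.55. The tumor value exceeded the high doxycycline value by 1.41-fold, or 0.49 on the log2 scale. Herc6, the main ligase that attaches ISG15 in the mouse, had 142, 312 and 500 in the same order. This was 2.19-fold and 3.51-fold above control, and 1.60-fold from high doxycycline to tumor. With a pseudocount of 64 the log2 difference of 1.13 between high doxycycline and control became 0.87. Trim25, a ubiquitin ligase that activates RIG-I, had 975 on control and 899 on both other arrays. Usp18 and Herc6 were brighter on the arrays where the macrophage, muscle and endothelial lists were dim.

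Among 7 other antiviral effector genes, Eif2ak2 alone passed 2-fold, Cmpk2 and Samhd1 were brighter away from control by less, and 3 were listed at equal values. Eif2ak2 encodes PKR, a kinase that stops translation when it meets double-stranded RNA. It had 249 on the array labelled control, 615 on high doxycycline and 547 on tumor, or 2.47-fold and 2.19-fold above control. Cmpk2, a mitochondrial nucleotide kinase, had 214, 344 and 419, so that tumor stood 1.95-fold above control. That log2 difference of 0.96 passed the threshold under a common median (1.15) and under quantile normalization (1.09). Samhd1, which depletes the nucleotides needed for reverse transcription, had 1055, 1534 and 1824, with tumor 1.73-fold above control.

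Rsad2, which encodes viperin and lies beside Cmpk2 in the genome, had 147 on the array labelled control, 150 on high doxycycline and 113 on tumor. All values of Rsad2 lay below the array medians, and those on control and high doxycycline were only 1.02-fold apart, so their order is not read. Its tumor value was the dimmest, whereas Cmpk2 was brightest on tumor. The dynamin-like antiviral GTPase genes Mx1 and Mx2 were listed at 61.8 and 76.2 on all arrays, far below the array medians. Bst2, which encodes tetherin, a protein that holds budding virus at the cell surface, was listed at 615 on all arrays.

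The GTPase genes measured, which are known for the interferon gamma response to intracellular parasites and bacteria, stayed within 2-fold. Irgm1, a regulator of the immunity-related GTPases, had 458 on the array labelled control, 557 on high doxycycline and 663 on tumor, a range of 1.45-fold. Gbp3, a guanylate-binding protein, had 193, 124 and 136 in the same order, 1.56-fold and 1.42-fold below control. Iigp1, which attacks the vacuole membranes of parasites, had 95.6 on control and 77.6 on both other arrays. Of these 3, only Irgm1 lay above the array medians.

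PARP9 and its partner DTX3L form a complex that modifies histones, and PARP14 is a related ADP-ribosyltransferase. Dtx3l had 261 on the array labelled control, 354 on high doxycycline and 359 on tumor. Parp9, whose gene shares a promoter region with Dtx3l, was listed at 305 on all arrays. Parp14 had 179, 106 and 101, so that it was 1.68-fold and 1.76-fold dimmer than on control and stayed below the medians.

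The remaining members have varied or less defined roles. Ifi27, a small membrane protein gene, had 986 on the array labelled control, 1915 on high doxycycline and 2067 on tumor. It was 1.94-fold and 2.10-fold brighter than on control, and the second log2 difference of 1.07 became 0.84 under quantile normalization. Ifi35, a leucine zipper protein gene, had 458, 536 and 568. Xaf1, a proapoptotic factor that antagonises XIAP, had 307, 270 and 311. Rtp4, a chaperone of receptors at the cell surface, had 119, 70.8 and 65.7, or 1.67-fold and 1.80-fold below control.

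Upstream of the members, most receptor and kinase genes of the pathway were less than 2-fold apart. Of 17 interferon, receptor, kinase and inhibitor genes, those above the array median numbered 15 on control and 14 on each other array. That was 88.2% and 82.4%, against 55.2% of all genes on control and 55.1% on each other array. Of these 17, 1 was at least 2-fold brighter and 1 dimmer in each comparison with control, or 5.88% each. The backgrounds were 10.6% brighter and 5.56% dimmer for high doxycycline and 11.3% and 6.82% for tumor. Furthermore, 0 of 17 differed by 2-fold between tumor and high doxycycline. Pias1, a SUMO ligase that restrains cytokine signalling, had 499 on control against 1567 on high doxycycline and 1960 on tumor, 3.14-fold and 3.92-fold above control. Socs3, which shuts off cytokine receptors, had 2167, 732 and 951, 2.96-fold and 2.28-fold below control, while its dimmer probe set gave 235, 176 and 171. The type I receptor gene Ifnar1 and the interferon gamma receptor gene Ifngr1 were listed at 1064 and 1639 on all arrays. The genes of their partner chains differed more: Ifnar2 had 2613 on control against 4417 on high doxycycline and 4260 on tumor, 1.69-fold and 1.63-fold above control, and Ifngr2 had 3923, 4726 and 4923. The gene of interferon beta, Ifnb1, had 76.0, 73.9 and 73.9 and that of interferon gamma, Ifng, was listed at 158 on all arrays. Both interferon genes lay below every array median. These 4 receptor genes, Ifnb1 and Ifng were singled out after their values were seen.

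Of 18 genes for nucleic acid sensing and interferon induction, 0 were at least 2-fold brighter on high doxycycline than on control and 3 were dimmer (16.7%), against backgrounds of 10.6% and 5.56%. On tumor the counts were 1 (5.56%) and 3 (16.7%), against 11.3% and 6.82%. Under a common median the dimmer count was 2 in each comparison (11.1%, against 4.61% and 5.26% of all genes). Under quantile normalization it was 4 (22.2%, against 6.35% and 7.27%). With the filter used for brightness, as deposited, 3 of 14 were dimmer in each comparison (21.4%, against 8.46% and 10.2%). Sting1, the adaptor that relays cytosolic DNA signals, had 557 on control against 116 on high doxycycline and 113 on tumor, 4.78-fold and 4.88-fold below control. Irf8 and Irf5, factors of myeloid cells, were 2.82-fold and 2.17-fold dimmer on both. The macrophage list moves with these genes, and its part in their values was not tested. Tlr3, the endosomal receptor for double-stranded RNA, went the other way with 170, 271 and 470, so that tumor stood 2.75-fold above control.

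In the comparisons with control, further interferon-inducible genes outside the member list were past 2-fold mostly on the dim side. Lower genes outnumbered higher ones as deposited and under quantile normalization, but not under a common median. Of 49 measured, 1 was at least 2-fold brighter and 8 dimmer on high doxycycline (16.3% dimmer, background 5.56%), and on tumor 1 was brighter and 9 dimmer (18.4%, background 6.82%). As deposited, 16 were higher and 29 lower on high doxycycline, and 15 and 30 on tumor. Over all genes it was 7052 and 8881, and 6843 and 10023. Under a common median, 25 were higher and 24 lower on high doxycycline, and 26 and 23 on tumor. All genes then split into 13727 and 6211, and 13465 and 6473. Under that scaling the dimmer counts were 5 (10.2%, against 4.61% of all genes) and 7 (14.3%, against 5.26%). Under quantile normalization, 20 were higher and 29 lower on high doxycycline, and 19 and 30 on tumor. All genes split there into 11113 and 8815, and 11053 and 8882. With the filter used for brightness, as deposited, 30 of the 49 entered each comparison with control. Of these 30, 5 were dimmer on high doxycycline (16.7%, against 8.46% of all genes) and 6 on tumor (20%, against 10.2%). Brighter was 1 in each (3.33%, against 17.5% and 18.6%). Between tumor and high doxycycline 0 of 49 differed by 2-fold. The dimmer ones on both arrays included the Schlafen genes Slfn5 (263, 76.1 and 69.9) and Slfn2 (284, 113 and 84.3), which restrain growth of lymphocytes and other cells. Ifi30, a lysosomal reductase of antigen-presenting cells, had 3442, 1066 and 1285. The chemokine gene Cxcl9, a product of macrophages and other cells exposed to interferon gamma, had 246, 122 and 108. Lgals9 (1050, 356 and 447) and Trim30a (233, 96.9 and 86.9) were dimmer by 2-fold on both as well, and Rnf213 (1545, 778 and 502) on tumor. All values of Cxcl9 and Trim30a lay below the array medians. A second Rnf213 probe set (1158, 835 and 599) gave a log2 difference of -0.95 on tumor, under 2-fold, against -1.62. The brighter gene of the list was Parp11, with 335 on control against 802 on high doxycycline and 725 on tumor. The part of the tissue markers in these differences was not tested.

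**Figure D4:**
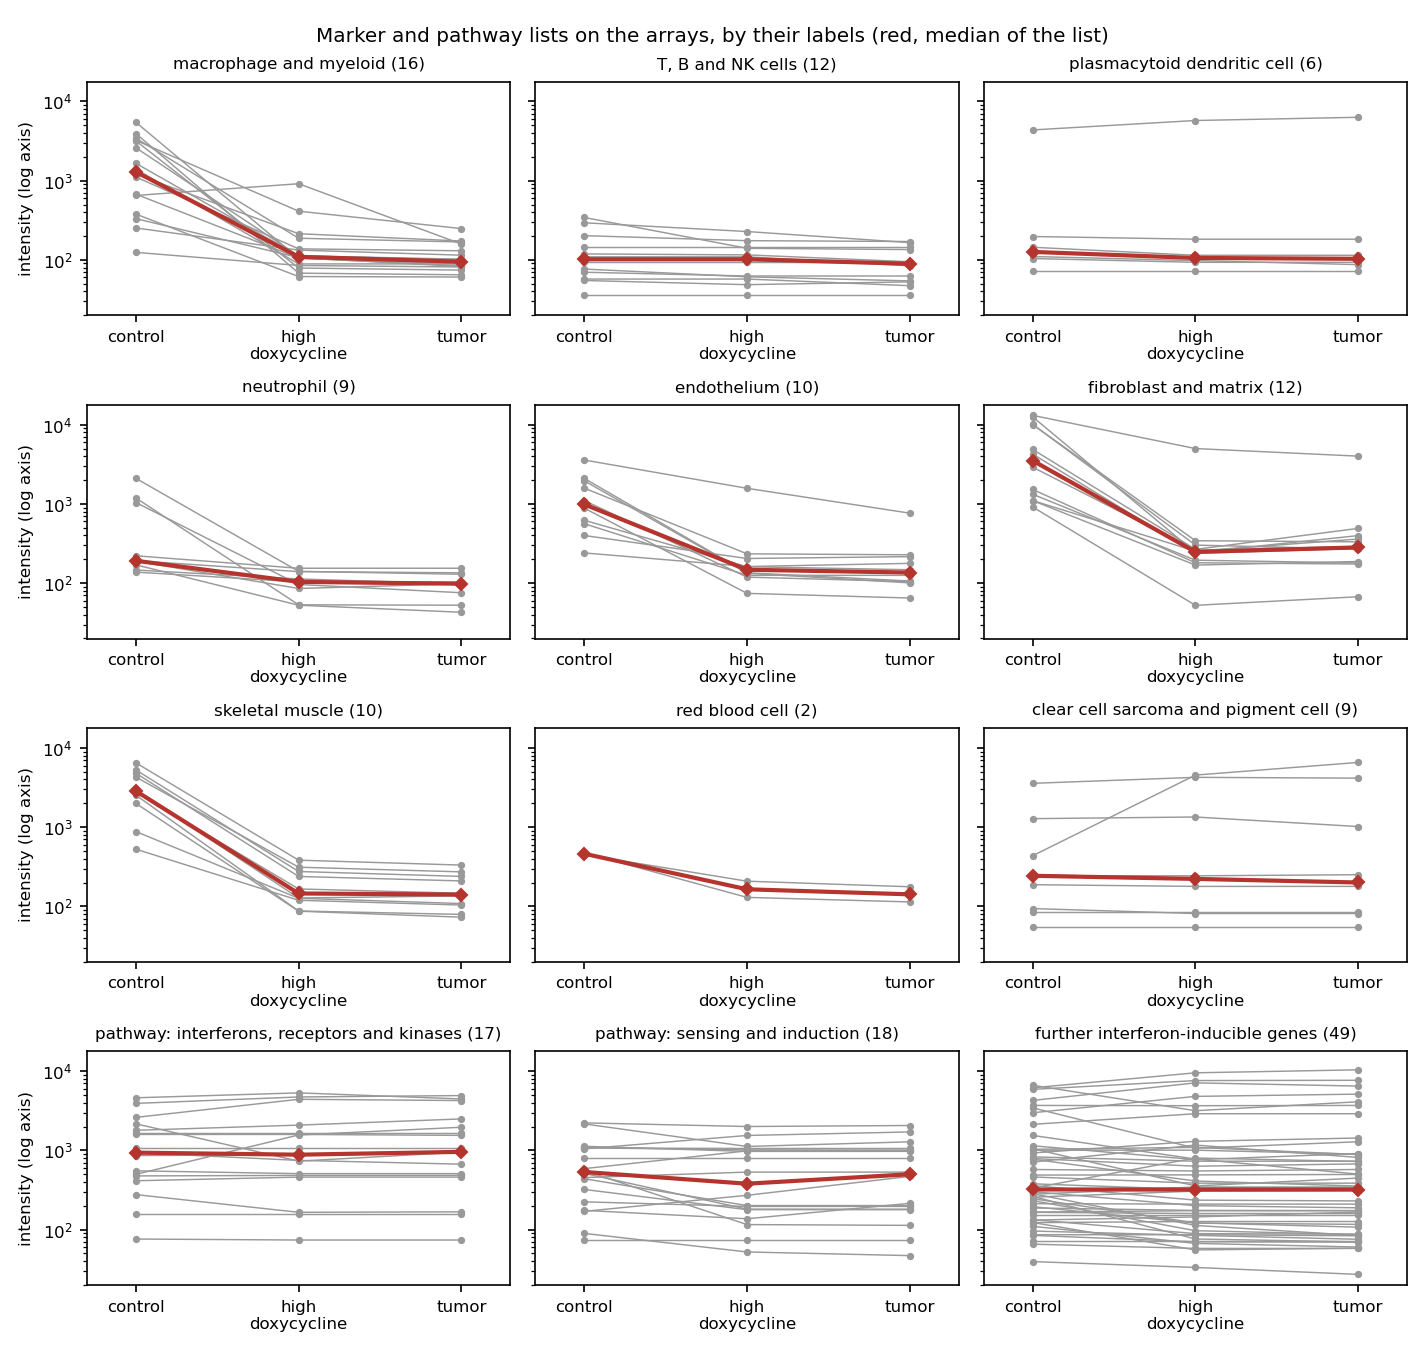
Intensity (log axis) of the measured genes of each marker and pathway list on each array, by its label; grey lines join the values of a gene, red diamonds are the list median, and the number of genes stands in each title. The macrophage, endothelial, fibroblast and muscle medians are highest on control. On the other arrays the fibroblast median stays above the array median, with log2 values of 7.96 on high doxycycline and 8.15 on tumor. The log2 median of the sensing and induction list is 9.06 for control, 8.57 for high doxycycline and 8.97 for tumor. That of the receptor and kinase list is 9.87, 9.79 and 9.91 in that order, and that of the further inducible genes is 8.33 on every array.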

How the data were processed

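Per the labels, biotin-labelled total RNA of 3 samples was measured on MoGene-1_0-st-v1 arrays of Affymetrix. The authors deposited linear intensity values, 1 per probe set; background correction, probe summary and normalization are not given in the sources used here. Depth does not apply; the number of arrays limits the precision. Probe sets were named by the platform annotation, in which 21789 of 28856 have 1 symbol, 1621 several and 5446 none; 21698 were matched by Entrez number to RefSeq (GRCm38.p6), with 0 symbols changed. Where a gene had several (999 genes), the probe set brightest on average was taken. The annotation names no build, so coordinates are given for RefSeq promoters only.

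Array differences are those of log2(intensity + 1) of the deposited values without rescaling, and a call is a difference of at least 2-fold. Computation used Python 3.11.15, numpy 2.4.6 and pandas 2.3.3 and was checked on simulated data. The members and lists were chosen with earlier results of these data known. Every measured member is named, and other list genes by the size of their difference (up to 8 per list, 2-fold or more). Alternatives were a common median, quantile normalization, pseudocounts of 16 and 64, no filter, a filter at percentile 75 and the mean of all probe sets.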

Additional observations from a re-analysis of the deposited data

How the results depend on the processing

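With 1 array per group, precision cannot be estimated, dim probe sets have no detection call, and folds of dim genes are understated by the pseudocount. The limits of 2-fold pass close to several members: Irf7, Ddx58, Cmpk2, Ifi27, Stat2, Oas2, Eif2ak2 and Herc6 crossed it under at least 1 alternative, and no member called at 2-fold reversed. Usp18, Ifit3 and Ifi205 stayed past it under every alternative tried, in the comparisons where they were called. Of 63 summary values under the 7 alternatives, 55 stayed within 1.5 times (counts) or within the median disagreement between probe sets (medians). For high doxycycline minus control, the count of brighter members was 2 of 8 with the filter at percentile 75, against 4 of 23. Over all genes it was 1489 of 6512, against 2086 of 11934. The count of dimmer members was 1 under a common median, 1 with a pseudocount of 64 and 1 with the filter at percentile 75, against 2. All genes gave 851 of 11956, 831 of 11934 and 571 of 6512, against 1010 of 11934. For tumor minus control, the count of dimmer members was 1 with a pseudocount of 64 and 1 with the filter at percentile 75, against 3. All genes gave 1006 of 12011 and 692 of 6637, against 1223 of 12011. With the filter at percentile 75, 8, 9 and 8 members were left. Their median difference became 0.999 for tumor minus control (0.16 with the filter at the median) and 0.18 for tumor minus high doxycycline (0.022). Over all genes the medians were 0.27 (0.076) and 0 (0) in that order. Fewer members passing accounts for the members' values with this filter by construction. The cause of the others was not tested. No paired analysis was possible because each group has 1 array.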

Other observations

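The genes on either side of the 10 members that differed by at least 2-fold were looked up in the order of the RefSeq gene table, a step chosen after the values were seen. Among 40 such entries, the nearest 2 measured genes on each side, 4 differed by at least 2-fold between some pair of arrays, a share of 10%, below the 20.4% of all genes. For Ifit3b, the copy beside Ifit3 and of the same family, tumor stood 7.10-fold above control and 4.13-fold above high doxycycline. It followed the order of Ifit3, whereas Ifit2 on the other side did not reach 2-fold, and Ifit1bl2 was listed at 33.0 on all arrays. Lipa, the lysosomal lipase gene beyond Ifit2, had 743, 1254 and 1444.

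Ifi203, near Ifi205 and of the same family of DNA-binding proteins, had 123 on the array labelled control, 55.4 on high doxycycline and 58.3 on tumor, 2.20-fold and 2.09-fold below control, a smaller difference than that of Ifi205. Ifi27l2a, which lies beside Ifi27 and is related to it, had 446, 147 and 154 and was 3.03-fold and 2.89-fold dimmer than on control, the opposite direction to Ifi27. Beside Herc6, Pyurf had 617, 1154 and 1386, 2.24-fold above control on tumor, in the same order as Herc6. The genes next to Usp18, Tuba8 and Slc6a13, differed from control by at most 1.40-fold. No near-identical copies were separated here, and none of these differences has a replicate.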
